A study of Mus musculus with 12 samples.

Results

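Mitochondrial ribosomal protein genes were followed in RNA-seq data of 3T3-L1 adipocytes in which Dnmt3a had been raised or lowered. They were taken as every feature of the deposited count table whose symbol begins with Mrpl or Mrps and a digit and that had at least 10 counts in 3 or more of the 12 libraries. This gave 69 genes of 27473 features, with none under the threshold, and 1 feature per symbol. The match was to upper and lower case as written, so MRPL33, which the table writes in capitals, was outside it; mitoribosomal proteins with other symbols were outside it too. 3T3-L1 is a mouse fibroblast line that is turned into fat-storing adipocytes in culture with dexamethasone, IBMX and insulin. On day 8 the adipocytes were transduced with a lentivirus, and they were harvested 4 days later. There were 4 groups of 3 libraries. The GFP group (labelled control) and the Dnmt3a overexpression group carried a pCDH expression vector, and the shScr group (scrambled hairpin) and the shDnmt3a group (hairpin against Dnmt3a) carried a hairpin vector, so both arms of the study share the cell line, the differentiation and the exposure to virus. The sequence of the Dnmt3a hairpin is not stated for these samples. The series calls the libraries of a group biological triplicates, with no word on whether each had its own culture, and the p-values below cover no more than the spread among these libraries, part of which may be technical.

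The mitoribosome is the ribosome of the mitochondrial matrix. It translates the few mRNAs encoded by mitochondrial DNA, all of which make subunits of the oxidative phosphorylation complexes. Its RNA comes from mitochondrial DNA, but its proteins are encoded in the nucleus, made by cytosolic ribosomes and imported. Some of these proteins descend from bacterial ribosomal proteins and others are found only in mitochondria. In adipocytes mitochondrial content rises with differentiation, and mitochondrial respiration serves fatty acid synthesis as well as ATP production. Dnmt3a, whose level was changed here, is an enzyme that adds methyl groups to CpG dinucleotides in DNA. By subunit, 42 of the 69 genes encode large-subunit proteins and 27 small-subunit proteins, with Mrps18a and Mrps30 counted as large because their proteins sit in the large subunit in spite of the symbol. Of the 69, 44 have a bacterial counterpart and 25 are specific to mitochondria.

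The genes lie on 17 chromosomes and were all matched by symbol to the GENCODE vM1 annotation of mm9, the build on which the authors counted. Their promoters, taken from 250 bases before to 50 after the start of transcription, were rich in CpG. The median member promoter held 19 CpG (lowest 6, highest 37), against a median of 12 over 22380 protein-coding promoters of the same 300 bases. At least 10 CpG were found in 97.1% of member promoters and 55.5% of all promoters. Exact matches to 4 motifs of factors known for nuclear genes of mitochondrial proteins were searched on both strands. The core of the NRF1 site, GCGCATGC, was in 10.1% of member promoters and 3.35% of all. The ETS site of GABPA, CCGGAAGT, was in 14.5% and 4.85%. The YY1 site, AAGATGGC, was in 15.9% and 3.33%, and the ERR element, CAAGGTCA, in 4.35% and 1.27%. At least 1 of the 4 was in 28 members (40.6%) and in 12% of all promoters. For 2 other motifs searched, outside these 4, the shares were 7.25% and 7.89% (E-box, CACGTG) and 10.1% and 13.3% (TATA box, TATAAA). A match says only that these letters stand in the window.

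The promoters of 5 genes are shown because they carry the cases the results return to: a member of each motif class, the shared promoter of a pair of members, and the gene with the clearest change against the rest. Capitals mark a match to 1 of the 4 motifs on either strand, and each sequence runs 5′ to 3′ on the strand of the gene it is named for.
Mrps28 (chr3:8923869-8924168, minus strand, NRF1 core): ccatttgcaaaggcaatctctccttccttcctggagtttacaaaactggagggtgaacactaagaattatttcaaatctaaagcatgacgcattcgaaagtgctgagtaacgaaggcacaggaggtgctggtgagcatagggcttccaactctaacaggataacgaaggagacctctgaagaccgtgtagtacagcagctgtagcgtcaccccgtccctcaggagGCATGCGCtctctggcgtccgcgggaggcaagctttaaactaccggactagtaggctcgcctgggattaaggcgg
Mrps27 (chr13:100114491-100114790, plus strand, GABPA and YY1): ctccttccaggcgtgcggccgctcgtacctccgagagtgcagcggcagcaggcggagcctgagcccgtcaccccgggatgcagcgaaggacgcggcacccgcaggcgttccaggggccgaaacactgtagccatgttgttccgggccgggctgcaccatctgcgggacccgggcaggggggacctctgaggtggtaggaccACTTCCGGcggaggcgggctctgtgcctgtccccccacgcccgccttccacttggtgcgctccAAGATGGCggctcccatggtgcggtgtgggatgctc
Mrps11 (chr7:85927755-85928054, plus strand, YY1, shared with Mrpl46): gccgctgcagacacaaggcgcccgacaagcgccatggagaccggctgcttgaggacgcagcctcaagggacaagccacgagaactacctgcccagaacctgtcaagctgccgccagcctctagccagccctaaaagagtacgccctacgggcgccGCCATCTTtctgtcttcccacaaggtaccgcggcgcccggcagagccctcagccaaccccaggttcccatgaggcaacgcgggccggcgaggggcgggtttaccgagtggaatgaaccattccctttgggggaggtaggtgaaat
Mrps21 (chr3:95675393-95675692, minus strand, ERR element): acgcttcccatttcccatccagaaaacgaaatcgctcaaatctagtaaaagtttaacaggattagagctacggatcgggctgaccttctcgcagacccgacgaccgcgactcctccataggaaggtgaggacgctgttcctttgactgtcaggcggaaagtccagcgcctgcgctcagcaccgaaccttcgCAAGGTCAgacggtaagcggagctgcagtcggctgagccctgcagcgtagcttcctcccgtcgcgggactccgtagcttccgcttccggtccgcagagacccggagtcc
Mrpl45 (chr11:97176780-97177079, plus strand, no match): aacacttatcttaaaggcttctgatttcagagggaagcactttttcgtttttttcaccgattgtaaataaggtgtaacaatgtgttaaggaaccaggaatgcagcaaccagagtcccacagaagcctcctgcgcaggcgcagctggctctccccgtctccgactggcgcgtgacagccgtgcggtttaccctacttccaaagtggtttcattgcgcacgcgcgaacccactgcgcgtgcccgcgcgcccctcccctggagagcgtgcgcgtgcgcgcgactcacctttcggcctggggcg
DNA methylation of these regions was not analysed here.

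Many members share their promoter region with a gene on the other strand. A protein-coding neighbour that starts within 1000 bases in the opposite direction was found for 18 members (26.1%), against 7.55% of all protein-coding genes. Mrps11 and Mrpl46 are such a pair, with starts 53 bases apart on chromosome 7. Others include Mrps12 with Sars2, the mitochondrial seryl-tRNA synthetase, at 171 bases, Mrpl32 with the proteasome subunit gene Psma2 at 217, Mrpl18 with Tcp1, a subunit of the cytosolic chaperonin, at 37, and Mrps27 with Ptcd2, which encodes a mitochondrial RNA-binding protein, at 108.

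Dnmt3a itself followed the labels in every library. Its level was 90.3 to 96.8 CPM (the count as a share of the TMM-scaled library total) in GFP libraries and 2735 to 2790 CPM in Dnmt3a libraries, 78.8 to 86.5 in shScr and 39.3 to 40.8 in shDnmt3a. Library totals ran from 29084732 to 47341091 counts, and no member had fewer than 236 counts in any library. All 6 adipocyte markers (Adipoq, Fabp4, Plin1, Cidec, Pparg and Lpl) were expressed, with a summed level of 17840 to 18790 CPM in GFP, 22260 to 22960 in Dnmt3a, 14420 to 14860 in shScr and 14110 to 14510 in shDnmt3a. The 6 preadipocyte or fibroblast markers summed to between 423 and 598.3 CPM and the 6 macrophage markers to between 9.2 and 15.8 CPM, with 1 of the macrophage markers at 0 in every library. The 6 markers of dividing cells summed to 69.4 to 71.1 CPM in GFP, 46.5 to 48.0 in Dnmt3a, 35.0 to 40.4 in shScr and 37.5 to 39.7 in shDnmt3a. In bulk RNA, fewer cells of a kind and less RNA per cell cannot be told apart.

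The members covered a wide range of levels. Per kilobase of the counted feature, the median member in GFP libraries was at 22.1 CPM, with quartiles at 13.8 and 37.6. The lowest were Mrpl13 at 4.87 ± 0.18 CPM per kb (SD, n = 3), Mrpl35 at 6.48 ± 0.51 and Mrps34 at 7.44 ± 0.27. The highest were Mrps6 at 108.7 ± 2.49, Mrpl12 at 104.7 ± 2.81 and Mrps21 at 75.3 ± 3.9. The ranges of 1 SD around Mrps6 and Mrpl12 overlap, and both stand clear of Mrps21. Mrpl12 is a protein of the stalk, which recruits translation factors, and Mrps21 a small-subunit protein with a bacterial counterpart. These levels rest on the length of the counted feature, which for 8 members was more than 2 times longer than the annotated exons and for 12 more than 2 times shorter. Replicates were close, with a median coefficient of variation of 4.17% in GFP, 3.76% in Dnmt3a, 3.83% in shScr and 3.53% in shDnmt3a.

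Mrps6 needs to be read apart from the rest. Its feature held 22.7% to 32.2% of all member counts in a library and is 11548 bases long, against 1590 bases of annotated Mrps6 exons. Slc5a3, the sodium/myo-inositol cotransporter gene, starts inside Mrps6 on the same strand (chr16:92058567-92087718 within chr16:92058515-92112472) and has 10913 bases of annotated exons. Slc5a3 was not analysed here as a feature of its own, and the level given for Mrps6 cannot be told apart from reads of Slc5a3. Mrps6 is therefore left out of the sums that follow. Exons of 21 members, Mrps6 included, overlap another gene, 4 of these members on the same strand and 19 on the opposite strand, some on both. The library kit does not mark strand, so reads in such overlaps cannot be assigned to either gene. The other 48 members have no annotated overlap. Of these, 24 were higher on overexpression, and 29 lower and 2 higher on knock-down, in the tests given below. Over all tested genes, 14.3% were higher on overexpression, and 22.5% were lower and 23.3% higher on knock-down.

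Summed over the members without Mrps6, the level was higher in Dnmt3a than in GFP and lower in shDnmt3a than in shScr. The sums were 2608, 2736 and 2647 CPM in the GFP libraries and 2907, 2928 and 2970 CPM in the Dnmt3a libraries. They were 2991, 2939 and 3069 CPM in shScr and 2614, 2692 and 2683 CPM in shDnmt3a. In neither comparison did the groups overlap. As means these were 2664 ± 65.6, 2935 ± 32.1, 3000 ± 65.4 and 2663 ± 42.7 CPM (SD, n = 3), so the means of GFP and shDnmt3a, and those of Dnmt3a and shScr, differed by no more than the larger SD of the pair. For each subunit too, Dnmt3a stood above GFP and shDnmt3a below shScr. Large-subunit members summed to 1719 ± 39.7 CPM in GFP, 1912 ± 23.4 in Dnmt3a, 1927 ± 37.6 in shScr and 1734 ± 25.1 in shDnmt3a, and small-subunit members to 944.9 ± 26.8, 1023 ± 8.74, 1072 ± 28.4 and 928.8 ± 18.1. The ratio of large to small was 1.82 ± 0.02, 1.87 ± 0.01, 1.80 ± 0.015 and 1.87 ± 0.015 in that order of groups.

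**Figure D1:**
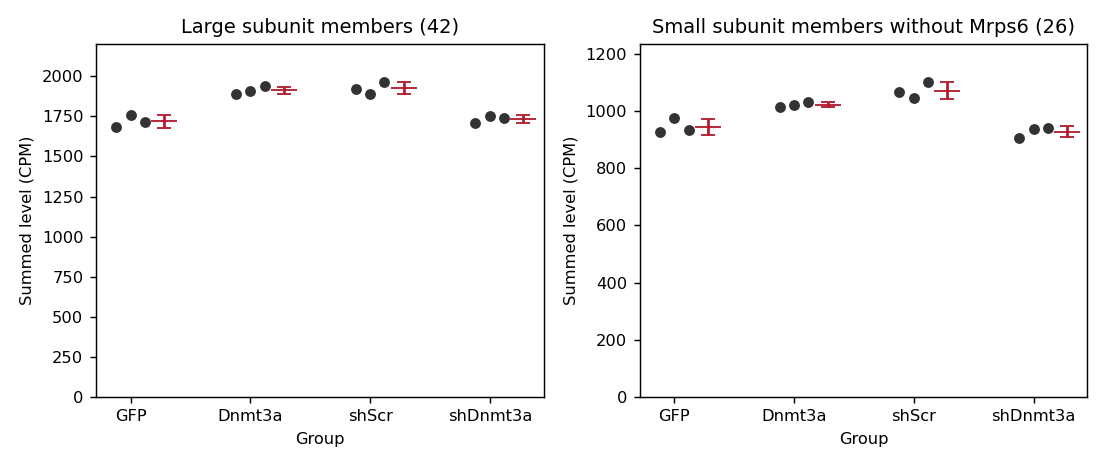
Summed level of the large-subunit members (left) and of the small-subunit members without Mrps6 (right) in CPM, by group; points are the 3 libraries and the red mark is the mean with its SD. In both panels all Dnmt3a libraries lie above all GFP libraries and all shDnmt3a libraries below all shScr libraries.

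With overexpression of Dnmt3a, many members rose by a small amount and none fell. By edgeR's quasi-likelihood test over 14168 genes, 33 of the 69 members were higher at an adjusted p under 0.05, 0 were lower and 36 did not pass. Among all genes tested, 14.3% were higher and 12.9% lower. A log2 fold change above 0 was seen for 65 members, and the median was 0.145, against -0.0066 over all genes. The middle part of the distribution ran from 0.087 to 0.194 between its quartiles, the largest value was 0.39, and the median standard error was 0.053. The libraries of the 2 groups did not overlap, with Dnmt3a above GFP, for 40 members, as for 20.4% of all genes.

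The largest rise was that of Mrps21. It was at 31.1, 34.5 and 32.8 CPM in GFP and 41.5, 42.7 and 44.4 CPM in Dnmt3a, a log2 fold change of 0.39 ± 0.053 (SE, n = 3 per group, edgeR adjusted p = 4.94e-07). Every Dnmt3a library was above every GFP library. Mrpl30, a large-subunit protein with a bacterial counterpart, went from 34.9, 38.5 and 35.7 to 43.3, 43.6 and 49.6 CPM, a log2 fold change of 0.33 ± 0.055 (edgeR adjusted p = 2.03e-05). Mrpl23, which lines the exit of the tunnel through which the new protein leaves, went from 11.7, 12.6 and 11.7 to 14.7, 14.8 and 15.5 CPM, a log2 fold change of 0.32 ± 0.073 (edgeR adjusted p = 0.000817). For both genes the groups again did not overlap. Mrpl54, specific to mitochondria, rose by 0.29 ± 0.055 (edgeR adjusted p = 9.4e-05), from 25.4 to 26.3 CPM in GFP to 30.6 to 32.9 CPM in Dnmt3a. Mrps36, counted here with the small subunit, encodes a protein known as part of the 2-oxoglutarate dehydrogenase complex. It rose by 0.28 ± 0.067 (edgeR adjusted p = 0.00135), from 17.2 to 20.3 CPM to 21.8 to 23.6 CPM. At the other end, 5 members had log2 fold changes near 0 that did not pass: Mrps18b at -0.07, Mrps10 at -0.06, Mrps6 at -0.02, Mrps25 at -0.003 and Mrpl17 at 0.006.

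Short features moved with the overexpression across the whole table. The median feature length was 1196 bases for the members and 3330.5 bases for the genes tested. Over all tested genes, the median log2 fold change on overexpression was 0.138 for features under 1000 bases, 0.063 from 1000 to under 2000, 0.001 from 2000 to under 4000 and -0.049 at 4000 or more. Members in the same classes had medians of 0.191 (n = 23), 0.148 (n = 24), 0.112 (n = 13) and 0.079 (n = 9), each above that of all genes. When the trend of each library with length was removed, 16 members were higher and 0 lower, with a median of 0.076. Mrps21 and Mrpl30 passed in that fit too, whereas Mrpl23, Mrpl54 and Mrps36 did not. The scaling bears on the count as well. TMM factors were 0.959 to 0.967 in Dnmt3a libraries and 1.008 to 1.013 in GFP libraries, and with library totals and no scaling factor, 19 members were higher and 1 (Mrps18b) lower, with a median of 0.079. On that scale the median of all genes was -0.0728 and the share of all calls that were higher went from 52.6% to 26.4%. Small structural RNAs were higher in Dnmt3a libraries too: Rpph1, the RNA of RNase P, was at 153.5 to 187.3 CPM in GFP and 247.6 to 361 in Dnmt3a, and Rmrp, the RNA of RNase MRP, at 278.2 to 350 and 399.6 to 569.1. Their part in the rise of the members was not tested.

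**Figure D2:**
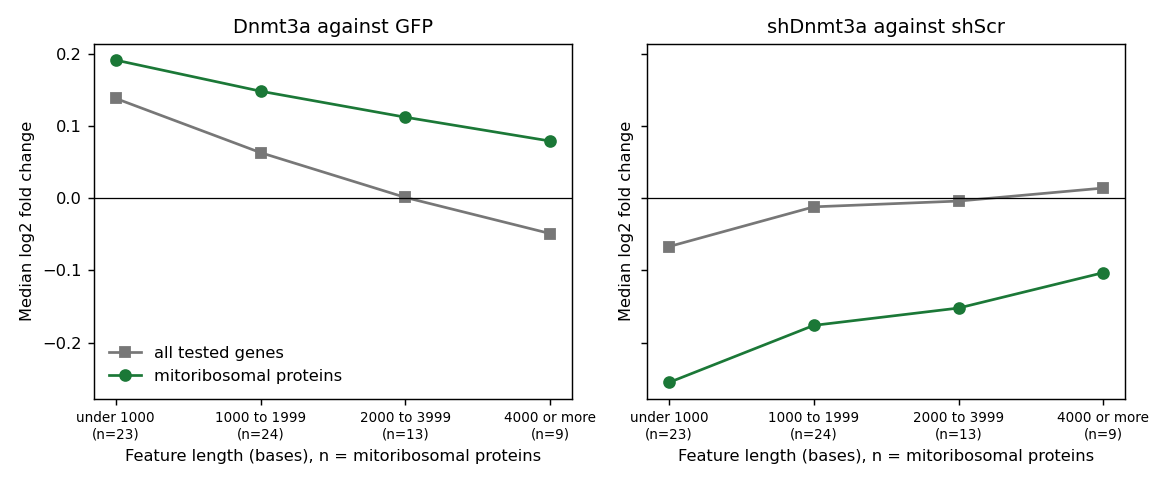
Median log2 fold change by length of the counted feature, for all tested genes (grey squares) and mitoribosomal proteins (green circles), on overexpression (left) and knock-down (right); n gives the mitoribosomal proteins per class. On overexpression the median of all genes falls from 0.138 to -0.049 with length and that of the members from 0.191 to 0.079, and on knock-down all genes run from -0.067 to 0.014 and members from -0.255 to -0.103.

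With knock-down of Dnmt3a most members fell. Of the 69, 43 were lower in shDnmt3a than in shScr, 3 were higher and 23 did not pass, in a test of 14115 genes in which 22.5% were lower and 23.3% higher. The median log2 fold change was -0.180, with quartiles at -0.281 and -0.086, against -0.0003 over all genes. For 47 members every shDnmt3a library was below every shScr library, as for 26.8% of all genes. Over all genes the medians differed less with length than on overexpression. Features under 1000 bases had a median of -0.067 over all genes and -0.255 among the members. Those of 4000 bases or more had 0.014 and -0.103. With the length trend removed, 40 members were lower. Mrps21, at -0.17 ± 0.056 (edgeR adjusted p = 0.019) before, was then at -0.062 and did not pass (edgeR adjusted p = 0.333). Mrpl54 did not pass there either (-0.090, edgeR adjusted p = 0.219). The call of Mrps21 was also lost without shScr replicate 3 (edgeR adjusted p = 0.113) or shDnmt3a replicate 1 (edgeR adjusted p = 0.1).

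The lowest estimate, though those of the other genes in this paragraph lie within its standard error, was that of Mrpl34. This large-subunit protein has a bacterial counterpart; it was at 24.3, 24.9 and 25.8 CPM in shScr and at 17.9, 19.3 and 18.4 CPM in shDnmt3a, a log2 fold change of -0.42 ± 0.060 (SE, n = 3 per group, edgeR adjusted p = 9.94e-06). Mrpl52, specific to mitochondria, went from 9.59, 9.93 and 9.75 to 6.91, 8.13 and 6.65 CPM, a log2 fold change of -0.42 ± 0.091 (edgeR adjusted p = 0.00083). Both genes had groups that did not overlap. Mrps18a, which sits in the large subunit, went from 62.4, 60.1 and 67.8 to 44.7, 49.9 and 48.6 CPM, a log2 fold change of -0.40 ± 0.053 (edgeR adjusted p = 3.53e-06). Mrps5, a protein of the mRNA entry and decoding region, went from 86.8, 81.4 and 84.9 to 62.5, 63.0 and 65.4 CPM, a log2 fold change of -0.40 ± 0.041 (edgeR adjusted p = 1.39e-07). Mrps28, whose promoter with the NRF1 core is shown above, went from 26.2, 25.9 and 28.3 to 20.5, 21.1 and 19.5 CPM, a log2 fold change of -0.39 ± 0.060 (edgeR adjusted p = 2.66e-05). In these 3 genes too every shDnmt3a library lay below every shScr library.

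On knock-down 3 members went the other way. Mrpl45 helps to hold the ribosome at the inner membrane, where new proteins are inserted. It was at 46.4, 48.9 and 48.0 CPM in shScr and at 55.4, 54.7 and 58.7 CPM in shDnmt3a, a log2 fold change of 0.24 ± 0.046 (edgeR adjusted p = 0.000244). Mrpl48, in the central protuberance of the large subunit, went from 120.9, 117.4 and 113.2 to 125.6, 133.4 and 137 CPM, a log2 fold change of 0.18 ± 0.040 (edgeR adjusted p = 0.00123). For both the groups did not overlap. Mrps10, of the small-subunit head, went from 26.1, 24.0 and 24.9 to 27.0, 27.8 and 29.9 CPM, a log2 fold change of 0.18 ± 0.059 (edgeR adjusted p = 0.0176), and was not called without shScr replicate 2 (0.148, edgeR adjusted p = 0.0811) or without shDnmt3a replicate 3 (0.137, edgeR adjusted p = 0.105). The next in order, Mrps15 at 0.17 and Mrpl44 at 0.13, did not pass (edgeR adjusted p = 0.057 and 0.0615). Both passed without shScr replicate 3 (edgeR adjusted p = 0.0448 and 0.0425), where the number higher was 5. Exons of Mrpl48 overlap another gene on each strand, those of Mrpl44 overlap Wdfy1 on the opposite strand, and those of Mrpl45, Mrps10 and Mrps15 have no annotated overlap.

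**Figure D3:**
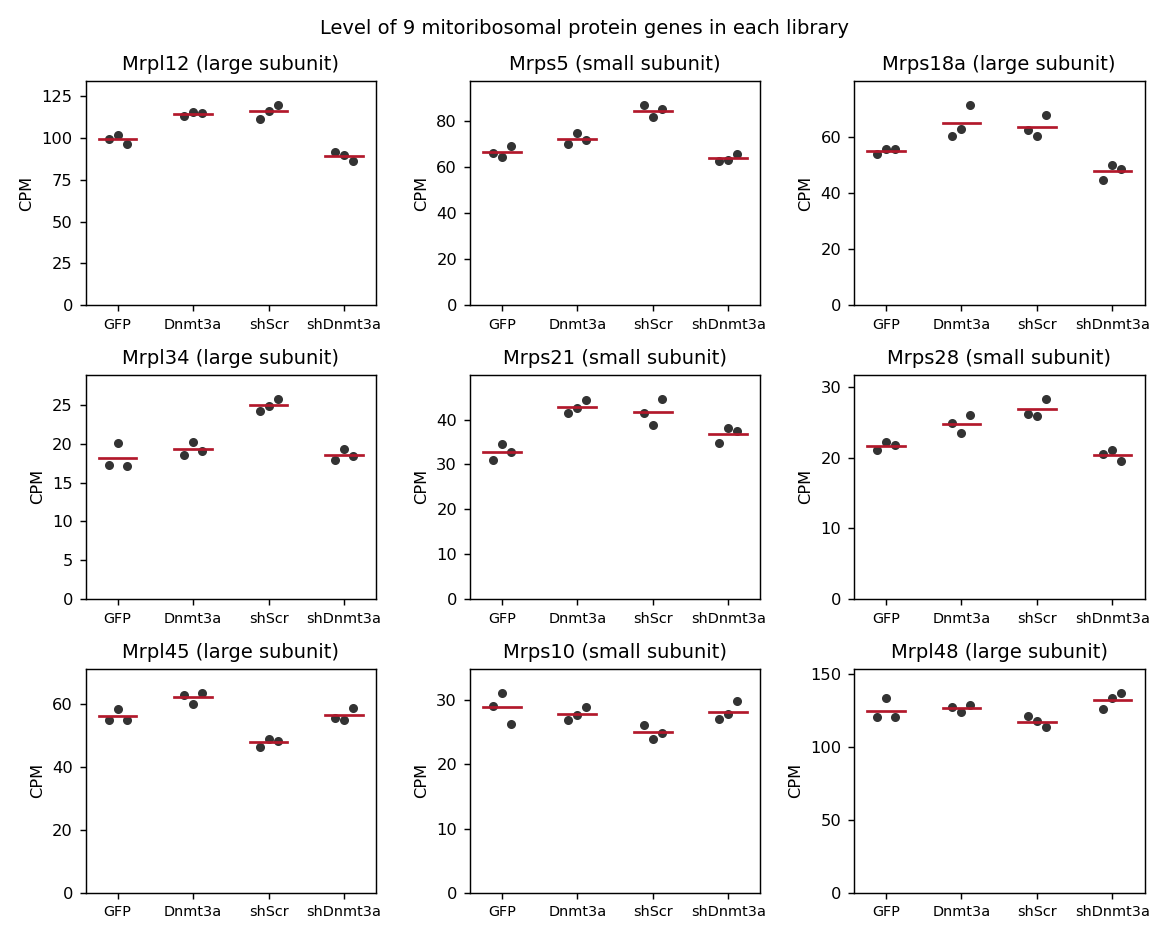
Level in CPM of 9 mitoribosomal protein genes in each of the 12 libraries, by group; points are libraries and red lines are group means. Mrpl12, Mrps5, Mrps18a, Mrpl34, Mrps21 and Mrps28 are lower in all shDnmt3a libraries than in all shScr libraries, and Mrpl45, Mrps10 and Mrpl48 are higher.

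The overexpression and knock-down comparisons share no libraries, so their calls can be set side by side. Higher on overexpression and lower on knock-down were 23 of the 69 members, 33.3%, as were 6.03% of the 13893 genes tested in both. Another 20 members were lower on knock-down only, 9 were higher on overexpression only, and 14 were called in neither. Mrpl45 was the 1 member higher in both. Its rise on overexpression, from 54.8, 58.3 and 54.8 to 62.7, 59.8 and 63.5 CPM (log2 fold change 0.15 ± 0.045, edgeR adjusted p = 0.0133), did not pass without GFP replicate 1 (0.129, edgeR adjusted p = 0.0532) or 3 (0.134, edgeR adjusted p = 0.0751), without Dnmt3a replicate 1 (0.139, edgeR adjusted p = 0.0527) or 3 (0.130, edgeR adjusted p = 0.0678), or with library totals (0.081, edgeR adjusted p = 0.178). By sign alone, 59 members (85.5%) were positive on overexpression and negative on knock-down, as were 25% of all genes. These shares were taken without removing the length trend, and most members are short. Among all genes with features under 1000 bases, 30.6% were higher on overexpression and 26.6% lower on knock-down. From 1000 to under 2000 bases these were 21.2% and 23%.

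**Figure D4:**
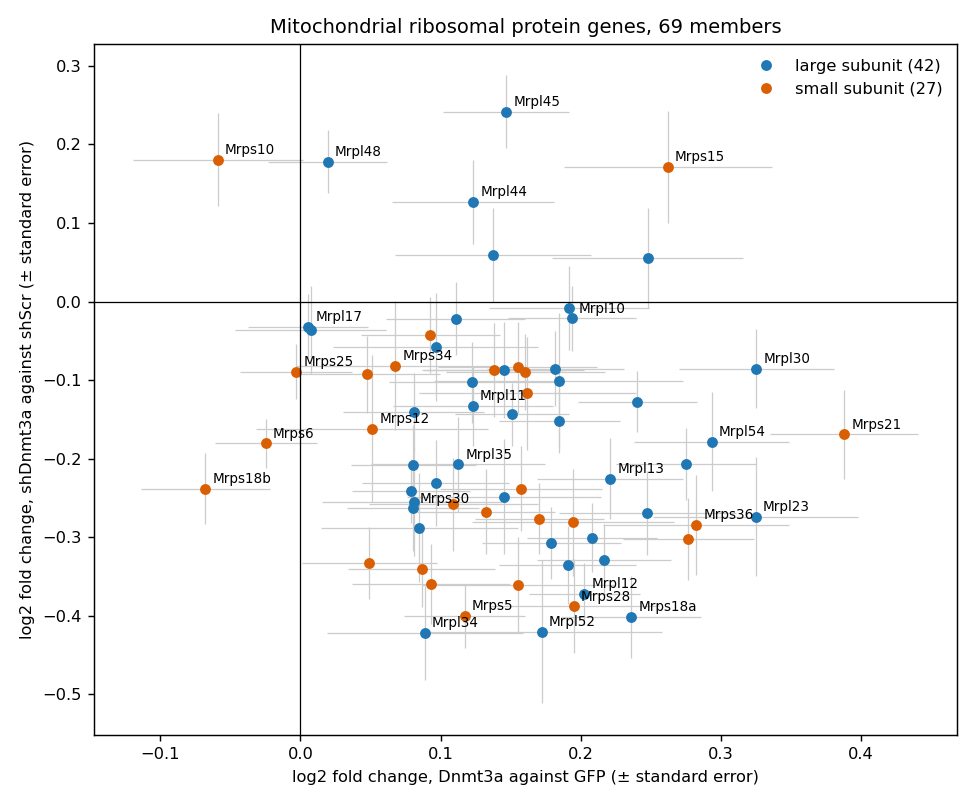
Log2 fold change of each of the 69 genes on overexpression (x axis) and on knock-down (y axis), with standard errors; blue points are large-subunit and orange points small-subunit members, and the named genes are labelled. In all, 59 points lie at the lower right, and Mrpl45 at 0.15 and 0.24 stands at the top.

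A test of the sum of both effects asks, gene by gene, whether they differ from equal size and opposite sign. Over 14491 genes it called 17 members (8 positive, 9 negative), and 37.2% of all genes. The largest positive sum was that of Mrps15 at 0.43 ± 0.112 (edgeR adjusted p = 0.00301), followed by Mrpl45 at 0.38 ± 0.063 (edgeR adjusted p = 1.7e-05). The lowest was Mrpl34 at -0.34 ± 0.093 (edgeR adjusted p = 0.00492), which fell on knock-down but was at 17.2, 20.1 and 17.1 CPM in GFP and 18.6, 20.3 and 19.1 CPM in Dnmt3a, an overlap of the groups. Mrps18b came next at -0.31 ± 0.062 (edgeR adjusted p = 0.000215). With library totals the number called was 29, and the share of all called sums that were positive went from 50.4% to 35.2%.

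Members of each subunit and class were among those called. On overexpression 20 of 42 large-subunit and 13 of 27 small-subunit members were higher, with medians of 0.149 and 0.132. On knock-down 26 of 42 and 17 of 27 were lower, with medians of -0.165 and -0.238. Members with a bacterial counterpart had 22 of 44 higher on overexpression and 28 of 44 lower on knock-down, and those specific to mitochondria 11 of 25 and 15 of 25. Over all tested genes, 14.3% were higher on overexpression and 22.5% lower on knock-down. The difference between subunits or classes was not tested.

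Among proteins placed by their position in the ribosome, the stalk had 3 members. Mrpl12 rose from 99.3, 102 and 96.7 CPM in GFP to 113.2, 115.4 and 114.9 CPM in Dnmt3a (log2 fold change 0.20 ± 0.040, edgeR adjusted p = 0.000145) and fell from 111.7, 116.5 and 119.8 CPM in shScr to 91.7, 89.7 and 86.2 CPM in shDnmt3a (-0.37 ± 0.039, edgeR adjusted p = 2.16e-07). With the length trend removed its rise was 0.086 and did not pass (edgeR adjusted p = 0.0967). Mrpl10, which anchors Mrpl12, was higher on overexpression, from 69.5 to 72.5 CPM to 74.7 to 86.8 CPM (0.19 ± 0.046, edgeR adjusted p = 0.00134), but had a log2 fold change of -0.02 on knock-down (edgeR adjusted p = 0.712). Mrpl11, at the base of the stalk, had 0.12 on overexpression (edgeR adjusted p = 0.109) and -0.13 ± 0.051 on knock-down (edgeR adjusted p = 0.0404). The latter call was lost without shScr replicate 2 or 3 or any shDnmt3a replicate (edgeR adjusted p = 0.0543 to 0.114), with upper-quartile factors (0.0994) or no filter (0.0581), and with DESeq2 (adjusted p = 0.0656).

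Of 5 proteins around the peptidyl transferase centre, where peptide bonds form (Mrpl2, Mrpl3, Mrpl4, Mrpl16 and Mrpl27), 3 were higher on overexpression and 4 lower on knock-down. The polypeptide exit tunnel (Mrpl22, Mrpl23, Mrpl24, Mrpl45 and Mrpl47) had 2 higher on overexpression, 4 lower on knock-down and Mrpl45 higher. In the central protuberance (Mrpl18, Mrpl38, Mrpl40, Mrpl46 and Mrpl48) 2 were higher on overexpression, 3 lower on knock-down and Mrpl48 higher. Along the decoding and mRNA path (Mrps5, Mrps7, Mrps11, Mrps12 and Mrps24) 3 were higher on overexpression and 4 lower on knock-down. Of all tested genes, 14.3% were higher on overexpression, and 23.3% were higher and 22.5% lower on knock-down. The difference between positions was not tested. Mrps12, which touches the decoding centre, was called in neither comparison, with 9.3 to 9.49 CPM in GFP, 9.35 to 10.2 in Dnmt3a, 10.9 to 11.6 in shScr and 8.55 to 11.4 in shDnmt3a. Its knock-down value of -0.16 ± 0.093 did not pass (edgeR adjusted p = 0.172), and without shDnmt3a replicate 2 it was -0.27 and passed (edgeR adjusted p = 0.0384). Mrps30, of the large subunit, was at 0.08 on overexpression (edgeR adjusted p = 0.217) and fell by 0.26 ± 0.054 on knock-down (edgeR adjusted p = 0.000524).

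Members that share promoters or motifs were set side by side. Mrps11 was at 14.1, 15.8 and 13.97 CPM in GFP, 17.1, 17.4 and 15.9 in Dnmt3a, 18.97, 19.5 and 22.1 in shScr and 16.5, 16.2 and 16.9 in shDnmt3a, with log2 fold changes of 0.19 ± 0.072 (edgeR adjusted p = 0.0401) and -0.28 ± 0.068 (edgeR adjusted p = 0.00218). Its partner Mrpl46 was at 16.3, 17.9 and 17.6 CPM in GFP, 19.8, 17.2 and 20.01 in Dnmt3a, 22.9, 19.7 and 21.2 in shScr and 16.1, 18.4 and 18.8 in shDnmt3a, with 0.15 ± 0.069 (edgeR adjusted p = 0.119) and -0.25 ± 0.074 (edgeR adjusted p = 0.00937). Both thus fell on knock-down, though 173 bases of their exons overlap on opposite strands and reads there cannot be assigned. Of the 16 neighbours that are not members, 13 were tested. Of these, 2 were higher and 0 lower on overexpression, and 2 higher and 5 lower on knock-down. Over all tested genes, 14.3% were higher and 12.9% lower on overexpression, and 23.3% higher and 22.5% lower on knock-down. Ptcd2, beside Mrps27, was among the neighbours lower on knock-down, at -0.64 (edgeR adjusted p = 1.91e-08), with Mrps27 at -0.33 ± 0.046 (edgeR adjusted p = 7.2e-06). Tcp1, beside Mrpl18, was at 0.25 (edgeR adjusted p = 1.99e-05), with Mrpl18 at -0.34. Of the 28 members with any of the 4 motifs, 14 were higher on overexpression and 19 lower on knock-down, with medians of 0.153 and -0.243. Of the 41 with none, 19 and 24 were, with medians of 0.132 and -0.141. The difference was not tested.

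The control groups themselves differed in these genes. In a fit of all 12 libraries over 14491 genes, 49 members were higher in shScr than in GFP, 3 were lower (Mrps6, Mrpl45 and Mrps10) and 17 did not pass, where 23.7% of all genes were higher and 22.8% lower. The median was 0.206, against -0.0060 over all genes, and 0.133 with the length trend removed. Without GFP replicate 1 the number lower was 5. In shDnmt3a against GFP, 11 members were higher and 11 lower, with a median of 0.000, where 23.6% of all genes were higher and 22.8% lower. Without shDnmt3a replicate 2 the number higher was 6. The highest member there was Mrpl36 at 0.39 and the lowest, outside Mrps6 at -0.63, was Mrpl52 at -0.36. Both comparisons share libraries with those above, and their groups differ in vector as well as insert, which cannot be told apart. Adipocyte markers moved between the same groups, with 5 of 6 lower and 1 higher in shScr than in GFP, and 6 of 6 dividing-cell markers were lower. On overexpression 6 of 6 adipocyte markers were higher and 4 of 6 dividing-cell markers lower. Adipoq, which encodes adiponectin, led there at 0.38 ± 0.036, and the mitotic topoisomerase gene Top2a was at -0.76 ± 0.062. On knock-down 3 adipocyte markers were higher (Cidec at 0.20 ± 0.030) and 2 lower (Adipoq at -0.22 ± 0.037), and of 6 fibroblast markers 1 was higher and 3 lower (Ly6a at -1.35 ± 0.059, Thy1 at -0.48 ± 0.076). Of 4 macrophage markers tested, 1 was higher on overexpression (Cd68, at 0.55 ± 0.107), and 1 was higher and 1 lower on knock-down. Their part in the members' changes was not tested.

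Other genes of mitochondrial protein synthesis were counted in the same fits, in lists drawn up from their known roles. In those fits 14.3% of all genes were higher and 12.9% lower on overexpression, and 23.3% higher and 22.5% lower on knock-down. Of 5 tested mitoribosomal proteins with other symbols, 2 were higher on overexpression and 2 lower on knock-down, the same pair in both: Dap3, the small-subunit GTP-binding protein also called Mrps29, at 0.16 ± 0.041 and -0.15 ± 0.038, and Aurkaip1, at 0.24 ± 0.042 and -0.19 ± 0.046. Of 10 translation factors, 3 were higher on overexpression and 9 lower on knock-down. Gfm1, the elongation factor that moves the ribosome along the mRNA, rose by 0.19 ± 0.040 on overexpression and Mtif3, an initiation factor, by 0.14 ± 0.043. Tufm, which brings tRNA to the ribosome, went from 157.1, 155.7 and 163.8 CPM in shScr to 117.6, 115.7 and 116.1 CPM in shDnmt3a (-0.44 ± 0.035), and Gfm2, which helps to recycle ribosomes, was at -0.48 ± 0.051.

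Of 17 mitochondrial aminoacyl-tRNA synthetases, which charge tRNAs with amino acids, 5 were higher and 1 lower on overexpression, and 1 higher and 10 lower on knock-down. Cars2 was among those higher on overexpression (0.30 ± 0.056), and Iars2 (-0.29 ± 0.031) and Wars2 (-0.43 ± 0.054) had the smallest p-values on knock-down. Lars2 was called higher in both, but its level swung within groups, at 25.1, 100.2 and 323.6 CPM in GFP, 429.2, 315.7 and 177.3 in Dnmt3a, 330.2, 51.5 and 109.4 in shScr and 272.8, 371.2 and 380.3 in shDnmt3a. Of 15 genes for assembly of the mitoribosome and modification of its RNA, 2 were higher on overexpression (Mpv17l2 at 0.25 ± 0.041 and Eral1 at 0.16 ± 0.052) and 9 lower on knock-down, led by Nsun4, an rRNA methyltransferase, at -0.53 ± 0.057 and its partner Mterfd2 at -0.38 ± 0.054. Of 9 genes for mitochondrial transcription and RNA stability, 1 was higher on overexpression (Hsd17b10, a subunit of mitochondrial RNase P, at 0.15 ± 0.042), and 1 was higher and 5 lower on knock-down. The latter included Hsd17b10 at -0.45 ± 0.041 and Lrpprc, which stabilises mitochondrial mRNAs, at -0.38 ± 0.034.

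Regulators of mitochondrial biogenesis did not move as one. Of 9, 1 was higher (Esrra, at 0.16 ± 0.040) and 3 lower on overexpression, and 2 were higher and 3 lower on knock-down. The shares of all tested genes were 14.3% higher and 12.9% lower on overexpression, and 23.3% higher and 22.5% lower on knock-down. Among the 9 on overexpression, the smallest p-values were those of Pprc1, a coactivator of the PGC-1 family, at -0.69 ± 0.068, and Myc at -0.67 ± 0.078, both lower. On knock-down they were those of Ppargc1a (PGC-1α), which went from 127.6, 134.6 and 124.7 CPM to 85.3, 84.5 and 82.1 CPM (-0.61 ± 0.039), and Esrra (ERRα) at -0.22 ± 0.040, both lower. In GFP and Dnmt3a, Ppargc1a was at 72.5 to 73.5 and 75.4 to 78.5 CPM.

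For scale, 72 nuclear-encoded subunits of oxidative phosphorylation, the complexes to which the products of the mitoribosome belong, had 70 higher and 0 lower on overexpression (median 0.332) and 1 higher and 67 lower on knock-down (median -0.370). The cytochrome c oxidase subunits Cox6c (0.51 ± 0.045) and Cox4i1 (0.41 ± 0.038) had the smallest p-values on overexpression, and Sdhb of succinate dehydrogenase (-0.63 ± 0.036) and Atp5b of ATP synthase (-0.51 ± 0.030) on knock-down. Of 74 cytosolic ribosomal proteins, 47 were higher and 0 lower on overexpression (median 0.155), and 4 higher and 39 lower on knock-down (median -0.118). Rpl24 (0.34 ± 0.043) and Rps19 (0.33 ± 0.043) led on overexpression, and Rpl13 (-0.38 ± 0.045) and Rpl10 (0.30 ± 0.036), which moved in opposite directions, on knock-down. Over all tested genes, 14.3% were higher and 12.9% lower on overexpression, and 23.3% higher and 22.5% lower on knock-down. The counts for these lists were taken without removing the length trend. The differences between these lists and the members were not tested.

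**Figure D5:**
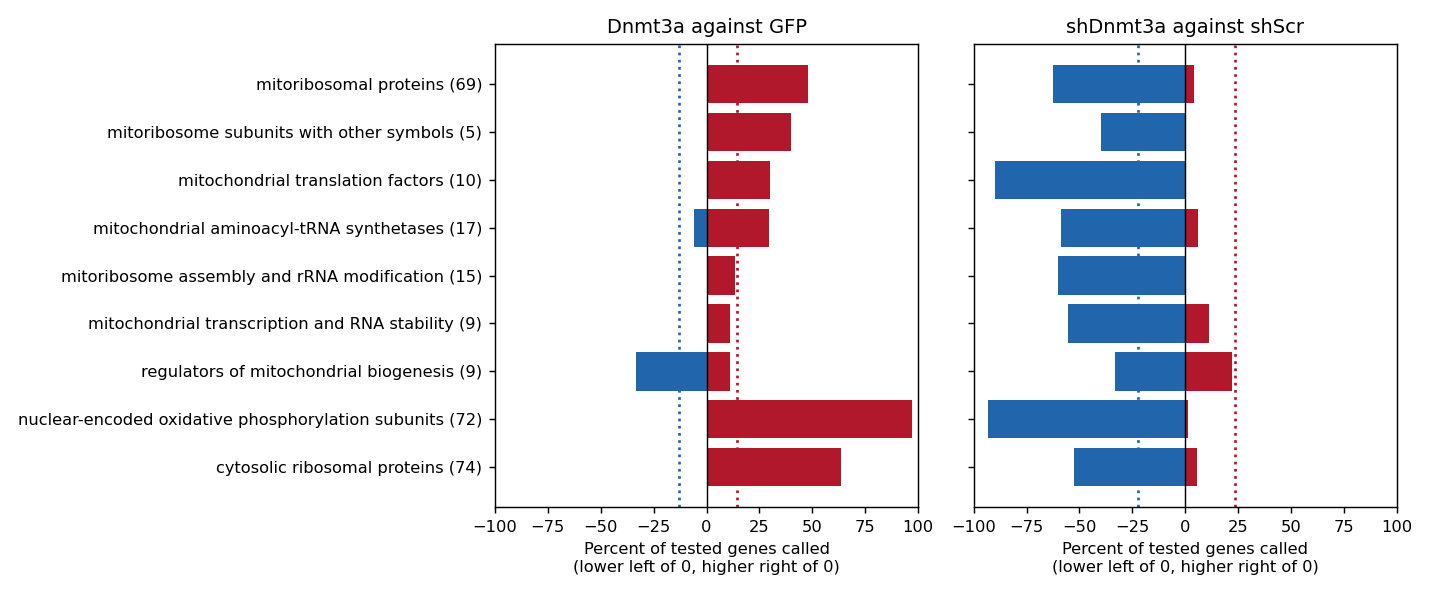
Percent of the tested genes called higher (red, right of 0) or lower (blue, left of 0) at an adjusted p under 0.05 for the mitoribosomal proteins and 8 related lists, with the number tested in brackets, on overexpression (left) and knock-down (right); dotted lines give the percent of all tested genes called. For the mitoribosomal proteins the bars stand for 33 and 0 of 69 on the left and 3 and 43 of 69 on the right, and the oxidative phosphorylation subunits have the longest bar on each side.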

How the data were processed

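Libraries were made from RNA depleted of ribosomal RNA (TruSeq RNA kit) and read on a HiSeq2500. As the study's methods and processing notes state, the authors aligned reads to mm9 with TopHat2 (2.0.14), used Picard (2.2.4) and SAMtools (0.1.19), and assigned reads by featureCounts (1.4.6), using gene models altered so as to overlap little. Their strand setting is not stated. What the authors deposited are raw counts, whole numbers for each feature, with no normalization.

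Samples were grouped by the labels, and no column was left without a sample. TMM factors scaled the counts, which were tested by quasi-likelihood in edgeR (4.0.16, under R 4.3.3) on genes kept by its default filter. Overexpression and knock-down were fitted on their own 6 libraries and all other contrasts on 12. Adjustment of p-values (Benjamini-Hochberg) ran over all genes tested, with calls under 0.05. Members and lists were chosen with earlier results of these data known. Named were the 5 highest and 5 lowest members in each main comparison, members called against the majority, the 3 highest and 3 lowest per kilobase, role examples, and the 2 genes of smallest p in each list, of which 1 is not reported here. The neighbours, the shared promoter pair and the members shown for a motif were chosen after their values were seen. Pairs of replicates differed by more than sampling noise (chi-square 2.52 to 10.7 for each degree of freedom). The procedure was tested on simulated data. Alternatives included DESeq2 (1.42.0), RLE and upper-quartile factors, other filters, a replicate block, length and GC trends (lowess span 0.3), leaving out each library, and, chosen after seeing the data, library totals and members without exon overlap.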

Additional observations from a re-analysis of the deposited data

How the results depend on the processing

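On overexpression and knock-down, 27 named members were followed through the alternatives and none of their calls changed direction. Of 918 pairs of such a value and a setting, 851 kept their side of the threshold, 52 lost the call and 15 gained it. Among the 851, 21 changed sign, none of them called in either fit. The median on overexpression was 0.076 with the length trend removed and 0.079 with library totals, with 16 and 19 members higher, and 1 lower with library totals. On knock-down 5 members were higher with upper-quartile factors, with the length trend removed and with the GC trend removed. In shScr against GFP the median was 0.133 with the length trend removed and 5 members were lower with upper-quartile factors. At an adjusted p under 0.01, 5 members were higher in shDnmt3a than in GFP and 10 sums were called; with library totals 29 sums were called. Beyond the length and scaling offsets, the causes were not tested. DESeq2 called 26 higher and 0 lower on overexpression and 42 lower on knock-down.

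With 1 library left out, overexpression gave 23 to 38 members higher, 0 lower and a median of 0.115 to 0.176. Knock-down gave 38 to 43 lower, 2 to 5 higher (5 without shScr replicate 3, 2 without shScr replicate 2) and a median of -0.214 to -0.175. In shScr against GFP 41 to 46 were higher, 2 to 5 lower (5 without GFP replicate 1, 2 without GFP replicate 2) and the median was 0.175 to 0.228. In shDnmt3a against GFP 6 to 12 were higher (6 without shDnmt3a replicate 2), 8 to 12 lower and the median was -0.012 to 0.028. Sums called were 15 to 18. The overexpression calls of Mrps5, Mrps28 and Mrps15 were each lost without single libraries (edgeR adjusted p in brackets). Mrps5 lost it without GFP replicate 1 (0.0838) or 2 (0.121) or Dnmt3a replicate 2 (0.166) or 3 (0.0792). Mrps28 did so without GFP replicate 1 (0.0583) or Dnmt3a replicate 3 (0.0941), and Mrps15 without GFP replicate 2 (0.065) or Dnmt3a replicate 3 (0.125). With the length trend removed, the overexpression calls of Mrps5 (log2 fold change 0.061, edgeR adjusted p = 0.323), Mrps28 (0.041, edgeR adjusted p = 0.663) and Mrps18a (0.106, edgeR adjusted p = 0.0984) were lost too. With library totals, Mrps5 (edgeR adjusted p = 0.409) and Mrps28 (edgeR adjusted p = 0.104) did not pass. Mrps5 also did not pass with upper-quartile factors (edgeR adjusted p = 0.0602) or DESeq2 (adjusted p = 0.0572).

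Equal replicate numbers did not pair the libraries: deviations of same-numbered libraries correlated at -0.05 to 0.01. With a replicate block 34 members were higher on overexpression and 3 higher and 40 lower on knock-down, and 46 were higher in shScr than in GFP. Among the named members, the knock-down calls of Mrpl11 (-0.132, edgeR adjusted p = 0.0853) and Mrps25 (-0.089, edgeR adjusted p = 0.0987) were lost with the block. GC values were available for 88.3% of tested genes and all 69 members. The median standard error of a member, near 0.053 on the log2 scale, limits what 3 libraries a group can show; the largest change that did not pass was 0.184 on overexpression and 0.172 on knock-down.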

Other observations

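MRPL33, a large-subunit gene outside the rule because its symbol is in capitals, was at 24.1, 25.7 and 22.9 CPM in GFP and 27.4, 28 and 28.2 CPM in Dnmt3a. It was at 27.0, 25.1 and 30.1 CPM in shScr and 25.9, 25.8 and 27.0 CPM in shDnmt3a. Every Dnmt3a library was above every GFP library, and the hairpin groups overlapped.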
